A study of Mus musculus with 9 samples.

Results

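The integrated stress response and the unfolded protein response were followed in mouse liver through 8 genes: the transcription factors Atf3, Atf4, Ddit3 and Xbp1, the amino acid and glutathione enzymes Asns and Chac1, the kinase-like inhibitor Trib3 and the endoplasmic reticulum (ER) chaperone Hspa5. The members are the probes whose gene name, or an older or newer symbol of the same gene, is one of these 8, which gave 9 probes of the 41174 gene probes on the array, with 2 probes for Trib3. All 9 probes were well above background on all 9 arrays, so all 8 genes were among the 16788 tested.

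The tissue was a lobe of the liver, taken from male C57BL/6 mice of 3 months. Of 3 groups with 3 arrays each, the first was untreated, the second had received AAV-GFP, an adeno-associated virus that carries green fluorescent protein, and the third AAV-hGRβ, the same kind of virus carrying hGRβ, a human glucocorticoid receptor splice form whose carboxyl end does not bind hormone. The study asks what hGRβ does in mouse liver. The promoter of the vectors, their dose and the time between injection and sampling are not given in the sources used here, and whether replicates were separate mice is not stated either; p-values here thus measure only the spread between these samples, which may be technical.

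The integrated stress response starts with kinases that phosphorylate the translation factor eIF2α under amino acid shortage, ER stress, double-stranded RNA or heme deficiency. General translation then falls while Atf4 mRNA is translated, and ATF4 with its partners drives genes such as Ddit3 (CHOP), Atf3, Trib3, Asns and Chac1. The unfolded protein response of the ER feeds into the same branch through PERK, and has others of its own that run through ATF6 and through IRE1, which splices Xbp1 mRNA; in liver it accompanies the heavy load of secreted protein. Much of the control of Atf4 and Xbp1 acts on translation and splicing, which these probes for total mRNA do not measure.

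The probes that carry the results are printed first, because each member's value rests on a single stretch of 60 bases, shown 5′ to 3′ in lower case as the array files give it. Positions are those of the files, on build mm7; no annotation of that build was used, so whether a probe lies in an exon or an untranslated region is not stated. The Atf3 probe (A_52_P452689) lies on the minus strand at chr1:190724174-190724233 and the Asns probe (A_51_P125745) on the minus strand at chr6:7628080-7628139. The Ddit3 probe (A_52_P533146) lies on the plus strand and reaches over 304 bases of the genome, chr10:126796858-126797161. The probes for Trib3 are both on the minus strand, A_51_P331570 at chr2:152078476-152078535 and A_52_P600274 at chr2:152079146-152079205.
Atf3 probe: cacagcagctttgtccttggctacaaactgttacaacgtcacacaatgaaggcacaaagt
Ddit3 probe: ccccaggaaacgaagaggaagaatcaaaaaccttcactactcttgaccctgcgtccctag
Asns probe: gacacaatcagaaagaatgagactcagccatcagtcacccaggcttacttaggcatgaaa
Trib3 probe A_51_P331570: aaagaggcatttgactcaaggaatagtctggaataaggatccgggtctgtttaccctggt
Trib3 probe A_52_P600274: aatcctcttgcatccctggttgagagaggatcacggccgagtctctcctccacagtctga

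Promoters of members that share the ATF4 branch are shown beside them, since their genes did not all move alike. The windows run from 250 bases before to 50 bases after the annotated start on the gene's own strand, from RefSeq on GRCm38.p6, and all 8 members had 1 such window. Searched on both strands were TGATGNAA, the core of the C/EBP-ATF response element bound by ATF4 with a C/EBP partner, TGACGTCA, the cAMP response element, TGACGTGG, the core of the unfolded protein response element, and CCAAT followed 9 bases later by CCACG, the ER stress response element; none of the matches overlapped another. The first core was found in 4 of 8 member windows against 3.97% of 32851 windows, the ER stress response element in 1 of 8 (Hspa5) against 0.119%, and neither of the others in any member window (1.79% and 0.676% of all windows). Members known as targets of ATF4 make up the gene set, so a motif count over them carries no test, and a match is a run of letters and not a bound site. Capitals mark the match, which runs from -110 to -103 relative to the start in Atf3 (chr1:191183284-191183583, minus strand), from -23 to -16 in Asns (chr6:7693160-7693459, minus strand), from 15 to 22 in Trib3 and from -193 to -186 in Chac1. In Hspa5 (chr2:34771840-34772139, plus strand) the CCAAT and CCACG of the ER stress response element are in capitals, from -65 to -47. For Trib3 (chr2:152344019-152344066, minus strand) and Chac1 (chr2:119351029-119351076, plus strand) only the 48 bases around the match are given.
Atf3 promoter: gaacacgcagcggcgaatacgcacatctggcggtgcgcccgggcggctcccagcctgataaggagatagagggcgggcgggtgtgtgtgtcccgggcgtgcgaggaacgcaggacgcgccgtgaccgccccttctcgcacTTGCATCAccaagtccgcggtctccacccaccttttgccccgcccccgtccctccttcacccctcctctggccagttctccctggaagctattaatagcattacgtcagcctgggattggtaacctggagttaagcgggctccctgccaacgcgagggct
Asns promoter: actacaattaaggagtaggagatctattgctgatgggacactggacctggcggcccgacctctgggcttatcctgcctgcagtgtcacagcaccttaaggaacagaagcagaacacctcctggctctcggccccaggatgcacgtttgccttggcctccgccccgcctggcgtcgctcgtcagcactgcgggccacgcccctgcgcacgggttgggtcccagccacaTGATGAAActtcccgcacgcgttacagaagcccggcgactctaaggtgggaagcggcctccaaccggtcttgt
Trib3 promoter stretch: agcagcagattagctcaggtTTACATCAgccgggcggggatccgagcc
Chac1 promoter stretch: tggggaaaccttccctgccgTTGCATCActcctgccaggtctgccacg
Hspa5 promoter: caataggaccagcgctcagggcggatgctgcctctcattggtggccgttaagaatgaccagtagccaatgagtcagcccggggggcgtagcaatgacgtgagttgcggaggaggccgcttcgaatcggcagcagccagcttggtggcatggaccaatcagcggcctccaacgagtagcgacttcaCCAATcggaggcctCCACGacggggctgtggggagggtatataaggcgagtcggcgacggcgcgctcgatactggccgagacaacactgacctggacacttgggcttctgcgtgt

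The share of gene spots well above background ran from 53.97% (untreated replicate 3) to 81.99% (AAV-hGRβ replicate 1) over the arrays, whose number limits the precision. Gene spots had a median signal of 79.0 and 72.9 on AAV-hGRβ replicates 1 and 3. On the other arrays it was 37.7 to 60.8, with 38.1 on AAV-hGRβ replicate 2. All 8 hepatocyte markers listed (such as Alb and Ttr) were measured in every group. Untreated replicate 2 stood apart: across genes it correlated at 0.9734 and 0.9753 with the other untreated arrays, which correlated at 0.9882 with each other, and at 0.9838 to 0.9887 with the AAV-GFP arrays. Scan day 2 held this array, the third AAV-GFP array and the first AAV-hGRβ array, and the last pair also shared a slide. Untreated replicate 2 was alone on its slide. The remaining slides each held a single group: untreated replicates 3 and 4, AAV-GFP replicates 1 and 2, or AAV-hGRβ replicates 2 and 3. On scan day 1, differences between groups thus cannot be told apart from differences between slides. Day 2 had a single array of each group. Member differences of AAV-hGRβ from untreated liver are therefore also given without untreated replicate 2. The untreated arrays that remain share a slide and a scan day, so those values are not free of slide or day.

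Atf3, a stress-induced repressor and activator of transcription, was the only member that passed the test in any comparison, and it rose with AAV-hGRβ. Levels are given as log2 of the signal minus log2 of the array's own 75th percentile, which is therefore 0. Atf3 read -2.58, -2.11 and -2.91 in untreated liver, -2.44, -2.14 and -2.30 with AAV-GFP, and -0.67, -0.74 and 0.04 with AAV-hGRβ. The AAV-hGRβ arrays lay above all 6 others without overlap, while untreated and AAV-GFP arrays overlapped.

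Atf3 averaged -0.46 ± 0.43 on the AAV-hGRβ arrays and -2.29 ± 0.15 on the AAV-GFP arrays (SD, n = 3 each), a log2 difference of 1.84 (SE 0.27, 95% interval 1.22 to 2.46, limma adjusted p = 0.0219), or 3.57-fold. It ranked 224th of 16788 genes by size and 69th by p. Against the untreated mean of -2.53 ± 0.40 the difference was 2.07 (SE 0.27, adjusted p = 0.00817), or 4.21-fold; without untreated replicate 2 it was 2.05 (adjusted p = 0.0180). Between AAV-GFP and untreated liver Atf3 differed by 0.24 (95% interval -0.38 to 0.85, adjusted p = 0.688). The comparisons share arrays and are not independent of each other. From low to high the order was untreated, AAV-GFP, AAV-hGRβ, and the ranges of the first pair overlapped.

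Within scan days the Atf3 difference from AAV-GFP was 1.94 on day 1 and 1.63 on day 2. Its direction held in every setting tried, but the call against AAV-GFP did not. It was lost without AAV-GFP replicate 1 (difference 1.76, adjusted p = 0.103), AAV-GFP replicate 2 (1.91, 0.0546), AAV-GFP replicate 3 (1.84, 0.0507), AAV-hGRβ replicate 1 (1.95, 0.0688) or AAV-hGRβ replicate 3 (1.59, 0.0788), each of which leaves fewer arrays. With slide as a random block, the adjusted p was 0.0866 against AAV-GFP and 0.0878 against untreated. A model-based background correction (normexp, with an offset of 50) lowered the difference to 0.61 and 0.86 (adjusted p = 0.593 and 0.614), and to 1.25 and 1.44 (0.0287 and 0.00734) once spots with a bright local background were given the array's median background.

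**Figure D1:**
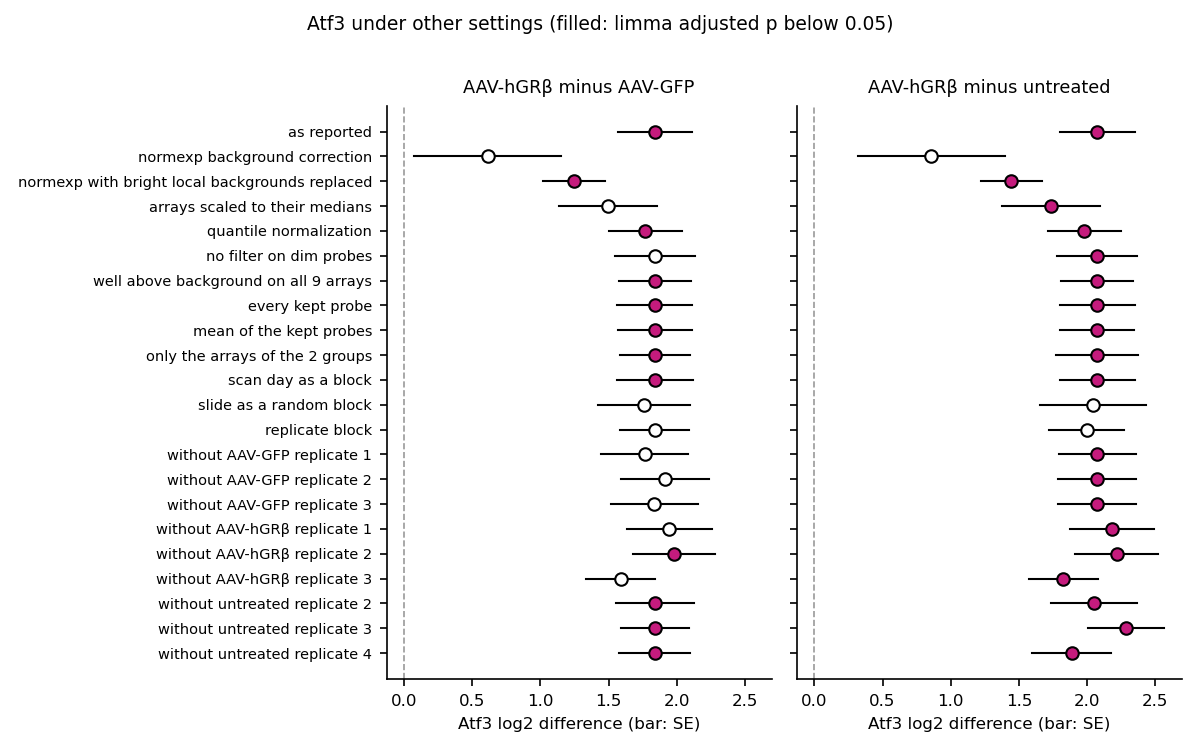
Log2 difference of Atf3 (x axis, log2 units, bar for 1 standard error) under every setting (y axis), for AAV-hGRβ minus AAV-GFP (left) and minus untreated (right); filled points have a limma adjusted p below 0.05. All points lie above 0, from 0.61 to 1.98 on the left and from 0.86 to 2.29 on the right, and the 2 lowest in each panel are those with normexp.

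Markers of some other cell types moved with the AAV-hGRβ group, and their part in the Atf3 result was not tested. Of 11 T and NK cell markers tested, 4 rose and none fell against AAV-GFP, with a median log2 difference of 1.58, and their summed log2 level went from between 1.36 and 1.41 with AAV-GFP to between 2.39 and 3.56. All 8 Kupffer cell and macrophage markers lay above 0 (median 0.62, 1 passed), with summed levels of 5.60 to 6.38 and of 6.93 to 7.48. All 8 hepatocyte markers lay below 0 with a median of -0.35, and none passed. Above background on at least 1 array were 10 of the 11 T and NK cell markers with AAV-GFP and all 11 in each other group. Neutrophil and monocyte, dendritic cell, and B and plasma cell markers had medians of 1.09, 0.86 and 0.60 over 5, 5 and 4 genes, with none passing against AAV-GFP. In the same comparison, medians were -0.22 for endothelial and -0.36 for stellate cell markers (6 genes each). Cholangiocyte markers had a median of 0.13 over 4 genes, and no marker of these types passed. In bulk tissue, more cells of a type and more RNA per cell cannot be told apart.

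Among the 7 other members no difference passed the test in any comparison. In AAV-hGRβ against AAV-GFP, 1 of 8 members passed higher and 0 lower, where 0.917% of all 16788 genes passed (141 higher, 13 lower). The median difference of the members was 0.06, and of all genes 0.03. Groups did not overlap for 1 of 8 members, and for 15.8% of all genes. Against untreated liver 1 of 8 passed, where 3.29% of all genes (553) did. Leaving out untreated replicate 2, so that untreated arrays shared a slide, raised these counts to 3 members (Atf3, Ddit3 and Asns) and 2145 genes. In the same comparison, with all arrays, 5 of 8 had groups that did not overlap (2 higher, 3 lower), where 29.2% of all genes had. For AAV-GFP against untreated liver, 0 of 8 members and 0 of all genes passed in limma (0% called); at an unadjusted p under 0.05 these counts were 0 and 1659. There 1 of 8 members, Hspa5, had groups that did not overlap, where 14.8% of all genes had.

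**Figure D2:**
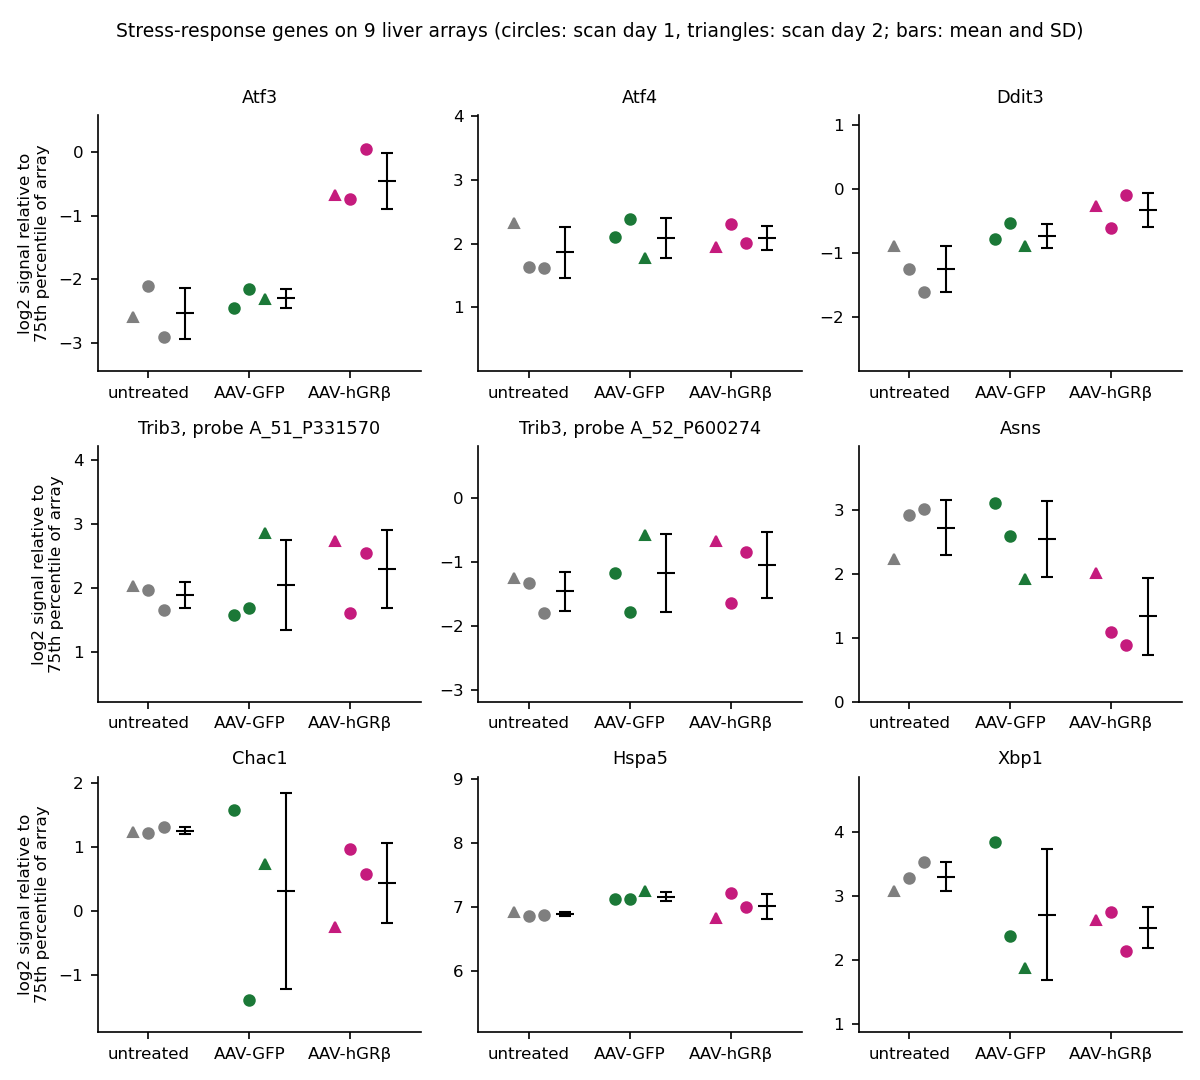
Log2 signal relative to the array's 75th percentile (y axis, same span in most panels) for each probe of the 8 genes on the 3 untreated, 3 AAV-GFP and 3 AAV-hGRβ arrays (x axis); circles were scanned on day 1 and triangles on day 2, and bars give the mean and SD. The AAV-hGRβ points of Atf3, from -0.74 to 0.04, lie above all other points of that panel, which end at -2.11.

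Atf4, the factor through which eIF2α phosphorylation reaches its target genes, had nearly equal means in the virus groups. It read 2.32, 1.64 and 1.62 in untreated liver, 2.10, 2.39 and 1.77 with AAV-GFP, and 1.95, 2.31 and 2.01 with AAV-hGRβ. The groups overlapped throughout. The difference from AAV-GFP was 0.00, with a 95% interval from -0.56 to 0.57 on the log2 scale (adjusted p = 0.997). From untreated liver Atf4 differed by 0.23 (adjusted p = 0.557), and by 0.46 without untreated replicate 2 (0.176).

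Ddit3, which encodes the pro-apoptotic factor CHOP, had the second highest difference from untreated liver among the members but did not pass. Its values were -0.88, -1.25 and -1.61 in untreated liver, -0.79, -0.53 and -0.89 with AAV-GFP, and -0.27, -0.62 and -0.09 with AAV-hGRβ. All AAV-hGRβ arrays lay above all untreated ones, and AAV-GFP arrays overlapped both. The difference was 0.92 from untreated (SE 0.23, adjusted p = 0.0652) and 0.41 from AAV-GFP (adjusted p = 0.564). Without untreated replicate 2, the first was 1.11 with an adjusted p of 0.0321, and in a test limited to probes above background on all arrays Ddit3 had an adjusted p of 0.0488.

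Xbp1, the target of IRE1 splicing, had its widest spread within the AAV-GFP group. It read 3.08, 3.29 and 3.54 in untreated liver, 3.85, 2.39 and 1.88 with AAV-GFP, and 2.62, 2.75 and 2.14 with AAV-hGRβ. AAV-hGRβ arrays lay below all untreated arrays, and AAV-GFP arrays on both sides of each group. Differences were -0.20 from AAV-GFP (95% interval -1.22 to 0.81, adjusted p = 0.921) and -0.80 from untreated (adjusted p = 0.277; -0.91 and 0.235 without untreated replicate 2).

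Asns, which makes asparagine and is a classical target of ATF4, stood lower with AAV-hGRβ without passing. It read 2.23, 2.92 and 3.01 in untreated liver, 3.11, 2.59 and 1.92 with AAV-GFP, and 2.02, 1.09 and 0.89 with AAV-hGRβ. The AAV-hGRβ arrays lay below all untreated arrays and overlapped AAV-GFP. In the fit the difference was -1.21 from AAV-GFP (SE 0.39, adjusted p = 0.254) and -1.39 from untreated (adjusted p = 0.0840). Within scan days the difference from AAV-GFP was -1.86 on day 1 and 0.09 on day 2, and that from untreated was -1.98 and -0.22. Without untreated replicate 2 the latter was -1.64 with an adjusted p of 0.0456, and with arrays scaled to their medians it was -1.73 with 0.0291.

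Trib3, an ATF4 target that binds and restrains AKT and ATF4 itself, was measured by both probes shown above. The brighter probe, A_51_P331570, read 2.02, 1.97 and 1.65 in untreated liver, 1.58, 1.69 and 2.86 with AAV-GFP, and 2.73, 1.60 and 2.55 with AAV-hGRβ. The other, A_52_P600274, gave -1.25, -1.33 and -1.80, then -1.16, -1.79 and -0.57, then -0.67, -1.64 and -0.85. On either probe the highest values were those of AAV-GFP replicate 3 and AAV-hGRβ replicate 1, the pair on a shared slide, and the part of the slide in this was not tested. The difference between the virus groups was 0.25 on the first probe and 0.12 on the second (adjusted p = 0.883 and 0.947), so the probes agreed in sign and neither passed. From untreated liver the first probe of Trib3 differed by 0.41 (adjusted p = 0.509), and by 0.48 without untreated replicate 2 (0.465).

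Chac1, a glutathione-degrading enzyme downstream of ATF4 and CHOP, was even in untreated liver and uneven after virus. It read 1.23, 1.21 and 1.31 in untreated liver, 1.58, -1.39 and 0.73 with AAV-GFP, and -0.26, 0.97 and 0.57 with AAV-hGRβ. The lowest and the highest value of all arrays were both from the AAV-GFP group, and the AAV-hGRβ arrays lay below all untreated ones. The SD was 0.05 in untreated liver and 1.53 with AAV-GFP, and the difference between the virus groups was 0.12 (95% interval -1.37 to 1.61, adjusted p = 0.969). From untreated liver Chac1 differed by -0.82 (adjusted p = 0.429), and by -0.83 without untreated replicate 2 (0.455).

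Hspa5, the ER chaperone BiP, had the narrowest range of the members over the 9 arrays, from 6.83 to 7.24. It read 6.92, 6.85 and 6.88 in untreated liver, 7.12, 7.12 and 7.24 with AAV-GFP, and 6.83, 7.21 and 6.99 with AAV-hGRβ. AAV-GFP arrays lay above all untreated arrays, by 0.28 in the mean (95% interval -0.08 to 0.63, adjusted p = 0.487). Against AAV-GFP the AAV-hGRβ arrays differed by -0.15 (95% interval -0.50 to 0.21, adjusted p = 0.805). Hspa5 with AAV-hGRβ differed from untreated liver by 0.13 (adjusted p = 0.609), and by 0.15 without untreated replicate 2 (0.565), where the AAV-GFP arrays differed by 0.29 (0.313).

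**Figure D3:**
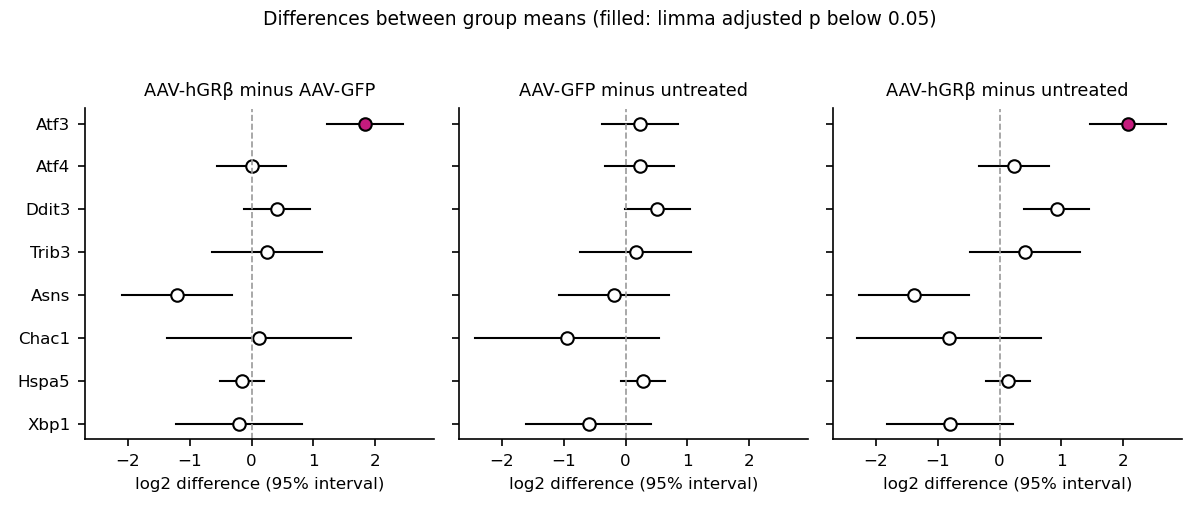
Log2 difference between group means (x axis) with its 95% interval, unadjusted for the number of genes, for each gene (y axis) in the 3 comparisons; filled points passed at a limma adjusted p below 0.05. Atf3 is the only filled point, at 1.84 and 2.07, while Asns sits lowest at -1.21 and -1.39.

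Set against the rest of the pathway, Atf3 stood apart on every AAV-hGRβ array. Each member was centred on its mean over the untreated arrays, and the mean of the 7 others was subtracted from Atf3 on each array. This gap was 2.01, 1.98 and 2.80 with AAV-hGRβ, and -0.18, 0.73 and 0.40 with AAV-GFP, against -0.09, 0.43 and -0.34 in untreated liver. Its mean was 2.26 ± 0.47 with AAV-hGRβ and 0.32 ± 0.46 with AAV-GFP (SD, n = 3 each). The 7 others averaged -0.19 ± 0.04 and -0.08 ± 0.32. Ddit3 was the highest of the others on each AAV-hGRβ array (0.98, 0.63 and 1.16), still below Atf3 (1.86, 1.79 and 2.57), and Asns was the lowest on replicates 2 and 3 (-1.63 and -1.84). As a score over chosen genes the gap has no test. It shrank from a group difference of 1.95 to 0.40 with normexp, and to 1.34 with the bright local backgrounds replaced.

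**Figure D4:**
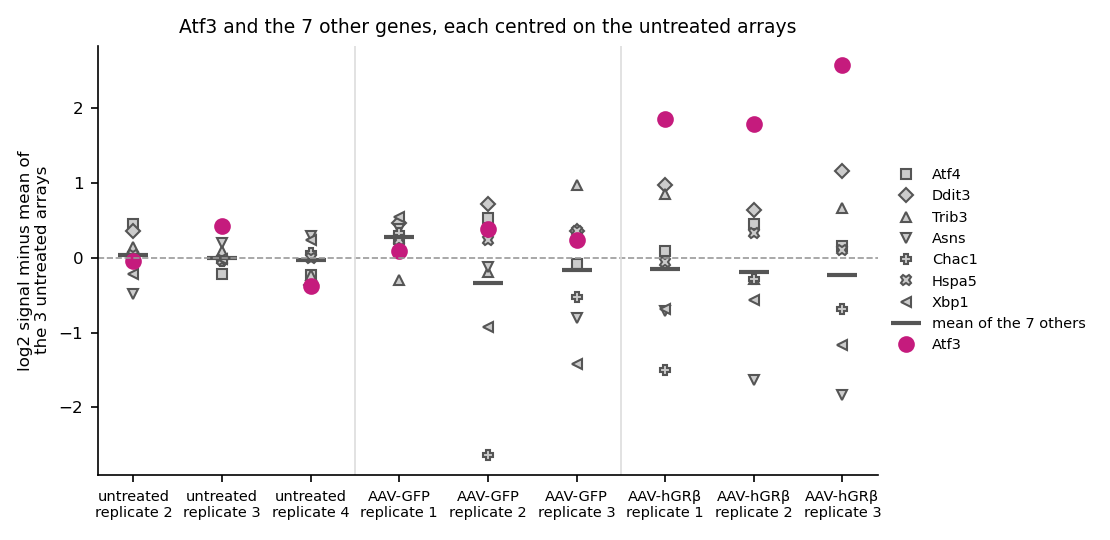
Log2 signal of Atf3 (filled circles) and of the 7 other genes (grey symbols, with their mean as a bar) on each of the 9 arrays (x axis), minus the gene's own mean over the 3 untreated arrays (y axis, log2 units). Atf3 lies between 1.79 and 2.57 on the AAV-hGRβ arrays, above every other gene, and between -0.38 and 0.43 on the 6 other arrays.

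The wider pathway was read from 10 lists with 129 genes, of which 128 were on the array and 123 were tested. In AAV-hGRβ against AAV-GFP, 2 of the 123 passed higher (Atf3 and Tnfrsf10b) and 0 lower, with a median of -0.04 against 0.03 for all genes. Tnfrsf10b entered the test only through the AAV-hGRβ arrays, where its probe was above background, so its pass adds nothing to the count. At an unadjusted p under 0.05 were 15 of the 123, and 11.7% of all genes. Against untreated liver, 2 of the 123 passed higher (Atf3 and Gdf15) and 0 lower, where 3.29% of all genes passed, and 36 were at an unadjusted p under 0.05, as were 25.6% of all genes. For AAV-GFP against untreated liver 0 passed in limma and 7 had an unadjusted p under 0.05, as did 9.88% of all genes.

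**Figure D5:**
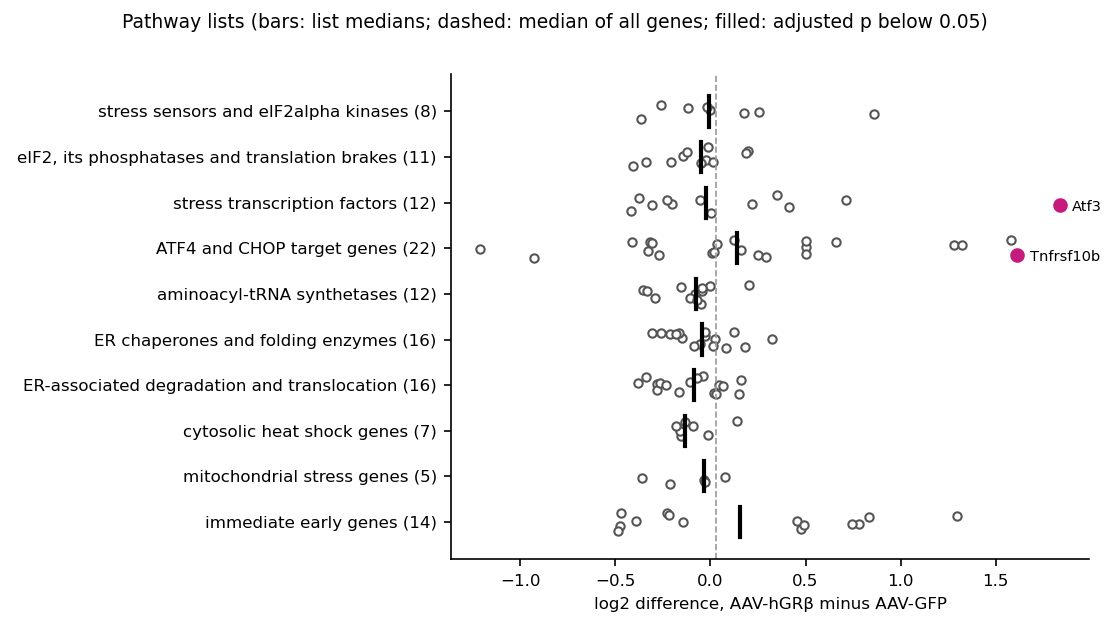
Log2 difference of AAV-hGRβ minus AAV-GFP (x axis) for each tested gene of 10 pathway lists (y axis, number of genes in brackets); bars are list medians, the dashed line is the median of all genes (0.03), and points are spread vertically only to separate them. Filled points have a limma adjusted p below 0.05: Atf3 at 1.84 and Tnfrsf10b at 1.61. Tnfrsf10b met the background filter only through the AAV-hGRβ arrays, so its point is a description. The 16 genes for ER chaperones and folding enzymes lie between -0.31 and 0.33.

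Sensors and translation control came first in the pathway, and none of their genes passed. Among 8 stress sensors and eIF2α kinases the median difference from AAV-GFP was -0.01. Eif2ak2 (PKR, the kinase activated by double-stranded RNA) averaged -0.74 ± 0.07 in AAV-hGRβ, -1.60 ± 0.28 in AAV-GFP and -1.13 ± 0.36 in untreated liver. Its difference from AAV-GFP was 0.86 (adjusted p = 0.157), with groups that did not overlap, as for 15.8% of all genes. Both virus groups overlapped untreated liver, with differences of -0.47 for AAV-GFP and 0.39 for AAV-hGRβ. Eif2ak1, the heme-regulated kinase, differed from AAV-GFP by -0.37 (adjusted p = 0.563), and its other probes by -0.11 and 0.01. Of 11 genes for eIF2, its phosphatases and translation brakes, Ppp1r15b, a targeting subunit of the eIF2α phosphatase, differed by -0.41 (adjusted p = 0.329; other probe -0.01) and Eif2b5, a subunit of the eIF2 exchange factor, by -0.34.

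Of 22 tested targets of ATF4 and CHOP, 15 lay above 0 against AAV-GFP, with a median of 0.14 against 0.03 for all genes, and the 1 that passed was Tnfrsf10b. Tnfrsf10b, the death receptor DR5 and a known CHOP target in human cells, read -3.39, -3.63 and -3.29 with AAV-hGRβ, -5.11, -4.41 and -5.63 with AAV-GFP, and -4.68, -4.33 and -4.26 in untreated liver. The probe was well above background on all 3 AAV-hGRβ arrays but on 1 of 3 AAV-GFP and 2 of 3 untreated arrays, so most AAV-GFP values lie near background and the log2 difference of 1.61 (adjusted p = 0.0479) is given as a description. Its second probe differed by 1.68 from AAV-GFP. In a fit of every kept probe neither passed (limma adjusted p = 0.0576 for the first and 0.0904 for the second). From untreated liver these probes differed by 0.99 and 2.45, also given as a description. When each array in turn was left out, the call of the first probe held only without AAV-GFP replicate 2 (adjusted p = 0.0234). Its adjusted p otherwise reached up to 0.224, and normexp turned its difference to -0.68.

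Gdf15, a secreted stress cytokine, read 2.91 ± 0.41 with AAV-hGRβ, 1.63 ± 0.25 with AAV-GFP and 1.43 ± 0.50 in untreated liver. It rose against untreated liver by 1.48 (SE 0.30, adjusted p = 0.0402) and differed from AAV-GFP by 1.28 (adjusted p = 0.116). The call against untreated held without AAV-GFP replicate 3 (0.0474) or untreated replicate 2 (0.0312) and was lost without any 1 of the 7 other arrays, with an adjusted p of up to 0.139 (without AAV-hGRβ replicate 3). It was also lost with normexp (0.118), median scaling (0.0638), no filter on dim probes (0.141), the 2 groups alone (0.0736) and slide as a random block (0.207). Against AAV-GFP, Gdf15 passed with scan day as a block (0.0378) and with normexp after bright local backgrounds were replaced (0.0455).

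No gene on the ER side of the response passed. Of 16 ER chaperones and folding enzymes none passed, and the median difference from AAV-GFP was -0.04; P4hb, a protein disulfide isomerase, differed by -0.31 (adjusted p = 0.537) and Dnajb9, a co-chaperone of Hspa5, by 0.33 (0.587). In AAV-GFP against untreated liver 15 of these 16 lay above 0 with a median of 0.24, against 0.03 for all genes, and 1 had an unadjusted p under 0.05. The shift was not particular to them: all 8 hepatocyte markers also lay above 0 there (median 0.23). Medians of the listed cell types ran from 0.08 (dendritic cell) to 0.38 (B and plasma cell). In AAV-hGRβ against untreated liver 13 of the 16 chaperones and folding enzymes lay above 0, with a median of 0.16 against 0.10 for all genes. None of 16 genes of ER-associated degradation and translocation passed; Derl3 and Sec61a1, which act in retrotranslocation and in protein entry to the ER, differed by -0.38 and -0.24 (other Sec61a1 probes 0.51 and -0.27). Aminoacyl-tRNA synthetases, many of which are ATF4 targets, had a median of -0.08 over 12 genes, with Mars1 at -0.35 and Yars at -0.33.

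Neighbouring programmes were read in the same way. None of 7 cytosolic heat shock genes passed, among them Hsf1, the heat shock factor (-0.18), and Hspa8 (-0.13), and none of 5 mitochondrial stress genes, among them the protease Lonp1 (-0.36) and the chaperone Hspa9 (-0.21). Of 14 immediate early genes none passed, and 4 had an unadjusted p under 0.05, where 11.7% of all genes had. Gadd45b, a damage-responsive gene, differed by 1.30 (adjusted p = 0.119, other probe 0.96) and Myc by 0.83 (0.317, other probes 0.74 and 0.91). In both the AAV-hGRβ arrays lay above all AAV-GFP arrays, where 15.8% of all genes had groups that did not overlap. From untreated liver AAV-hGRβ differed by 1.29 for Gadd45b and 0.38 for Myc. The Myc groups overlapped there (untreated up to 0.39, AAV-hGRβ from 0.22), and AAV-GFP differed from untreated by -0.45.

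By Pearson correlation over the 9 arrays, the named genes whose pattern was most like that of Atf3 among 16695 genes were Tmem86a (0.987), Il18bp (0.983), Sirpb1a (0.983), Cbr3 (0.981) and Ifi209 (0.980). These arrays form 3 groups, so the coefficient includes the step between groups, and it is given as a description. Since these 5 were picked for following Atf3, their differences from AAV-GFP are given without a test: 4.14 for Cbr3, 2.26 for Sirpb1a, 1.74 for Ifi209, 1.14 for Il18bp and 0.87 for Tmem86a. Among the members, Ddit3 had the highest coefficient with Atf3 (0.81) and Asns the lowest (-0.83).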

How the data were processed

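Liver RNA was hybridised to 9 single-colour Agilent arrays; 500 ng of total RNA was labelled with Cy3, per the labels' protocols. The deposited array files hold background-subtracted, linear intensity with no scaling between arrays, per the file headers, and the submitters' processing notes name Agilent Feature Extraction 9.5 as the software. The series table held the same intensity (largest difference 0; column medians 34.2 to 75.6), linear and not centred, as deposited.

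The log2 of the deposited processed intensity minus the array's 75th percentile was used. Control spots and spots with outlier flags were left out, spots of a probe averaged, and a probe kept if well above background on all arrays of a group (24273 probes); the brightest kept probe stood for a gene. Names came from RefSeq (GRCm38.p6): 23082 probes by accession, 6582 by symbol, 3073 by older symbol, 292 by identifier, and 8145 kept their own. Tests were those of limma (version 3.58.1, R version 4.3.3; lmFit, eBayes, two-sided, 9 arrays, 6 residual degrees of freedom), with Benjamini-Hochberg adjustment over 16788 genes at 0.05, after a test on simulated data. The named genes are all members, the genes of each pathway list that passed in any comparison, or else the 2 of smallest p for AAV-hGRβ against AAV-GFP, and the 5 most like Atf3. The members, lists and tests were chosen with earlier results of these data known.

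Alternatives were other background corrections, scalings, dim-probe filters and probe rules, fewer arrays, scan day or slide as a block, a replicate block and leaving out each array.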

Additional observations from a re-analysis of the deposited data

How the results depend on the processing

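Most settings changed a single choice. Normexp (offset 50) was also run with bright local backgrounds replaced, and the replicate block also kept only same-numbered arrays of the 2 groups compared. For AAV-hGRβ against AAV-GFP, 154 genes were called as reported, and 14 with normexp, 95 with arrays scaled to their medians (77 higher, 18 lower, against 141 and 13), 30 without the filter on dim probes, 77 from the arrays of the 2 groups only, 259 with scan day as a block, 75 with slide as a random block and 41 to 162 when each array was left out. Against untreated liver, 553 became 45, 85, 306, 1249 and 58 (normexp, no filter, 2 groups, scan day, slide), and 94 to 2145 with an array left out (2145 without untreated replicate 2); scaling to medians gave 583 with 326 higher, against 425. For AAV-GFP against untreated, 0 became 4 with median scaling and 1 with quantile normalization or scan day, and 0 to 1 with an array left out. Median scaling moved the median of all genes from 0.03 to -0.32 (AAV-hGRβ against AAV-GFP) and from 0.10 to -0.24 (against untreated), and Atf3 relative to that median was 1.81 and 1.98.

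Atf3 was no longer called against AAV-GFP (0 members) with normexp, median scaling (1.49, adjusted p = 0.0721), no filter (0.105) or slide as a block, and the members called ranged from 0 to 1 with an array left out. Against untreated, 0 members were called with normexp or slide as a block, 2 with median scaling (Asns added) or the filter on all 9 arrays (Ddit3 added), and 1 to 3 with an array left out (3 without untreated replicate 2). Atf3 minus the mean of the others fell to 0.40 and 1.34 with the normexp settings, from 1.95. Some of these settings also had fewer arrays or more genes tested. The cause of these moves was not tested.

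Same-numbered arrays of the virus groups deviated together with correlations of 0.012, 0.242 and 0.006. Arrays with different numbers ran from -0.271 to 0.208. Values from so few arrays neither show nor exclude a pairing by number. On same-numbered arrays of the virus groups, the replicate block called 2 genes and 0 members against AAV-GFP (Atf3 adjusted p = 0.101). For AAV-hGRβ against untreated, only replicates 2 and 3 of each group shared a number. With those arrays alone it called 0 genes and 0 members, and Gdf15 had an adjusted p of 0.387. The block and the loss of arrays were not separated.

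Signs of differences that had not passed, and of Tnfrsf10b, turned as follows. For AAV-hGRβ against AAV-GFP, normexp gave -0.029 for Chac1, 0.61 for Hspa5, 0.31 for Xbp1, 0.11 for Ppp1r15b, 0.027 for Eif2b5, -0.68 for Tnfrsf10b, 0.26 for Mars1, 0.46 for P4hb, 0.51 for Sec61a1, 0.45 for Hsf1, 0.65 for Hspa8, 0.34 for Lonp1, 0.51 for Hspa9 and -0.017 for Gadd45b. Median scaling gave -0.34 for Atf4, -0.094 for Trib3, -0.22 for Chac1 and -0.019 for Dnajb9; the mean of kept probes gave 0.000848 for Sec61a1; slide as a block gave -0.28 for Chac1 and 0.14 for Xbp1. With an array left out, Atf4 ran from -0.15 to 0.15, Chac1 from -0.73 to 0.76, Xbp1 from -0.62 to 0.37, Hsf1 from -0.37 to 0.0057 and Hspa8 from -0.26 to 0.042. For AAV-GFP against untreated, normexp gave -0.013 for Hspa5, and with an array left out Trib3 ran from -0.25 to 0.39 and Asns from -0.46 to 0.13. Against untreated, AAV-hGRβ gave -0.11 for Atf4 and -0.21 for Hspa5 with median scaling, and -0.058 for Hspa5 with quantile normalization. Of 504 values of members under these settings, 468 kept direction and side of the threshold, 13 lost a call, 4 gained a call and 19 changed sign. Probes near background are limited by signal over background, and that of Tnfrsf10b has no value under the filter on all 9 arrays.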

Other observations

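Among the targets of ATF4 and CHOP, 3 genes that did not pass had differences in both directions; they were chosen after their values were seen. Phgdh, the first enzyme of serine synthesis, differed in AAV-hGRβ liver by 1.32 from AAV-GFP (limma adjusted p = 0.244, overlapping groups) and by 1.69 from untreated liver (adjusted p = 0.0623). Fgf21, a fasting and stress hormone of the liver, differed by 1.58 from AAV-GFP (adjusted p = 0.269), with overlapping groups. Vldlr, a lipoprotein receptor, differed by -0.93 from AAV-GFP and -1.12 from untreated liver (adjusted p = 0.208 and 0.0598), with groups that did not overlap. In these comparisons groups did not overlap for 15.8% and 29.2% of all genes.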
